A study of Mus musculus with 8 samples.

Results

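The genes described here are the suppressors of cytokine signalling (SOCS), with their founding member Cish, and 2 protein inhibitors of activated STAT (PIAS): Cish, Socs1, Socs2, Socs3, Socs4, Socs5, Socs6, Socs7, Pias1 and Pias3. They were taken by gene symbol, and all 10 were found among the 23361 genes of the deposited table. Their expression was measured by RNA sequencing in regulatory T cells induced in culture (iTreg) from CD44 low, CD62L high naïve CD4+ T cells of wild-type Foxp3-RFP reporter mice, with anti-CD3/CD28 beads, IL-2 (50 U/ml per the labels) and TGF-β (2 ng/ml). Viable Foxp3-RFP+ cells were then split on surface neuropilin-1 to give Nrp-1+ iTreg (4 libraries) and Nrp-1- iTreg (4 libraries), which the labels call biological replicates. As described, all 8 libraries share the genotype, the reporter and the culture, and the 2 groups differ in the sorted subset. The labels give day 5 in one field and 3 days of culture in another. The study's methods describe male, young adult mice on the B6 background. Whether the 4 replicates of a group came from separate mice is not given in the sources used here, so p-values measure the spread between these libraries.

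Cytokines bind paired receptor chains whose JAK kinases phosphorylate STAT factors, and these enter the nucleus and switch on target genes. SOCS proteins are among those targets: they carry an SH2 domain that binds phosphotyrosine on receptors or kinases and a SOCS box that recruits a ubiquitin ligase, so a cytokine limits its own signal. PIAS proteins are SUMO ligases that act on STATs and other factors in the nucleus. In T cells, IL-2 acting through STAT5 is known to induce Cish and Socs2, interferon-γ to induce Socs1, and IL-6 and related cytokines acting through STAT3 to induce Socs3.

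Promoter windows from RefSeq (assembly GRCm38.p6, the build line named in the labels) were on hand for 6 of the 10 members, in 7 windows that run from 250 bases before to 50 bases after a start site. Socs2, Socs5, Socs6 and Socs7 had no window and were not searched. They were searched on both strands for TTCNNNGAA, the palindrome that STAT factors bind, and for a pair of GAAA repeats with any 2 bases between them, a pattern of interferon regulatory factors that was added after the Socs1 window had been read. TTCNNNGAA stood in the windows of Cish, with 2 matches, and Socs3, with 1 match, and the GAAA pair stood in that of Socs1. Of 32851 windows of the same length, 8.30% held TTCNNNGAA, 0.457% held it more than once, and 3.44% held the GAAA pair. The 3 stretches are shown because they belong to 3 of the 4 most abundant members and hold these letters, which are in capitals. A match is a description of the letters and not a bound site.

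Cish: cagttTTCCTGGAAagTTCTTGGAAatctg
Socs3: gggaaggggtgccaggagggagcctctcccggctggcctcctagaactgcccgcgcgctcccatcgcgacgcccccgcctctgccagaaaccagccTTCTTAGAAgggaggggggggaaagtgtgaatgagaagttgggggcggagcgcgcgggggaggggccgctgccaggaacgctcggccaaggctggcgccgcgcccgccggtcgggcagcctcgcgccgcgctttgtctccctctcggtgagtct
Socs1: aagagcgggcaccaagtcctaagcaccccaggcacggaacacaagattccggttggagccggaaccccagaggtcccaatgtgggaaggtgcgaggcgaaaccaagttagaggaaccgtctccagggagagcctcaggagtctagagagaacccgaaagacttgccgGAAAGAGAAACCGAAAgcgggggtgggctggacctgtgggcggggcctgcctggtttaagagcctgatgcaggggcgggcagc

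The Cish stretch is chr9:107296654-107296683 on the plus strand, and its matches begin at positions 1 and 12, counted from the RefSeq start site. The Socs3 stretch is chr11:117969367-117969616 on the minus strand, with the match from -154 to -146, and its start site lies inside the RefSeq gene span, which runs to 117970336. The Socs1 stretch is chr16:10785537-10785786 on the minus strand, and its 2 matches overlap by 4 bases between -83 and -68.

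The groups carried the labelled difference, since Nrp1 was at 20.4 to 22.0 FPKM in the Nrp-1+ libraries against 4.70 to 5.31 FPKM in the Nrp-1- libraries. FPKM counts sequenced fragments after scaling for transcript length and for library size. All 6 listed T cell markers and all 5 listed Treg markers were above a mean of 1 FPKM, and they did not move one way. Of the Treg markers, Il2ra, Ikzf2 and Foxp3 were higher in Nrp-1+ cells, Ctla4 was lower (-10.2%, adjusted p = 0.000938 by limma, 0.0518 with quantile normalization) and 1 did not pass. Of the T cell markers, Cd28 was higher, Cd3d and Cd3g were lower (-12.0% and -7.36%) and 3 did not pass. With quantile normalization the adjusted p values of Cd28, Cd3d and Cd3g by limma were 0.310, 0.304 and 0.696. The Cd28 call was also lost without any 1 library but Nrp-1+ replicate 4 or Nrp-1- replicate 1, and the Cd3g call without any but replicate 1 of either group (0.0702 to 0.106). Without the filter on low values the limma adjusted p was 0.0555 for Cd28 and 0.0560 for Cd3g, and eBayes without trend gave 0.0618 for Cd28. Foxp3 was 6.44% higher in Nrp-1+ cells (115.8 ± 3.72 against 108.8 ± 1.20 FPKM, SD, n = 4 each; adjusted p = 0.0245 by limma, but 0.0992 with quantile normalization, and 0.0585, 0.0534 and 0.0644 without Nrp-1+ replicate 2, Nrp-1- replicate 2 or Nrp-1- replicate 3). The summed markers of B, myeloid, NK and red blood cells reached at most 5.91, 7.73, 4.99 and 7.57 FPKM in any library. Of 4 B cell markers in the table, Cd79b was at means of 5.09 FPKM in Nrp-1+ cells and 4.58 FPKM in Nrp-1- cells and did not pass. The other 3 were under the filter, and among these Ms4a1 was listed at 0 throughout. Of 3 NK cell markers, Klrd1 was at means of 3.67 against 4.55 FPKM and did not pass, and the other 2 were under the filter. Of 5 myeloid markers in the table, Itgam was higher in Nrp-1+ cells (6.70 against 5.56 FPKM, adjusted p = 0.00136 by limma) and the other 4 were under the filter, with Csf1r, Itgax and Lyz2 at most 0.352 FPKM and Cd68 at 0.302 to 0.994 FPKM in Nrp-1+ cells against 0.189 to 1.57 FPKM in Nrp-1- cells. Of 3 red blood cell markers in the table, Hba-a1 was higher in Nrp-1+ cells (6.10 against 2.52 FPKM, adjusted p = 0.000510 by limma) and made up nearly all of the sum. Alas2 and Hba-a2, a near-identical copy of Hba-a1 with which reads may be shared, stayed at or below 0.0806 FPKM. Of the CD8 T cell markers, Cd8a stayed at or below 0.111 FPKM and Cd8b1 was lower in Nrp-1+ iTreg (7.86 against 10.0 FPKM). The relative depth of the libraries, read from the steps of low values, spanned 0.993 to 1.21 for Nrp-1+ cells, against 0.808 to 1.23 for Nrp-1- cells. All 20 listed proliferation genes were higher in Nrp-1+ iTreg, with a median log2 fold change of 0.91, and their part in the differences below, like that of Itgam and Hba-a1, was not tested. In such sorted bulk samples, fewer cells that express a gene and less RNA per cell cannot be told apart.

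The members fell into an abundant and a low set. Cish, Socs2, Socs1 and Socs3 made up 90.2% to 91.3% of the FPKM summed over all 10 members in every library, and Cish was 42.9 times as abundant as Socs5, the lowest. In both groups the order began with Cish, followed by Socs2, Socs1, Socs3, Pias1 and Socs4, and ended with Socs6 and Socs5. The ranges of Socs2 and Socs1 overlapped in both groups, while within libraries Socs1 was at 0.895 to 0.966 of Socs2 in Nrp-1- iTreg and at 0.834 to 1.00 of it in Nrp-1+ iTreg. Pias3 and Socs7 also overlapped in both groups and changed places between them, and Pias3 overlapped Socs6 in Nrp-1- iTreg. All other neighbours in the order were apart. The plot of levels by library shows the gap between Socs3, at 83.5 to 94.1 FPKM, and Pias1, at means of 16.8 and 16.3 FPKM.

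**Figure D1:**
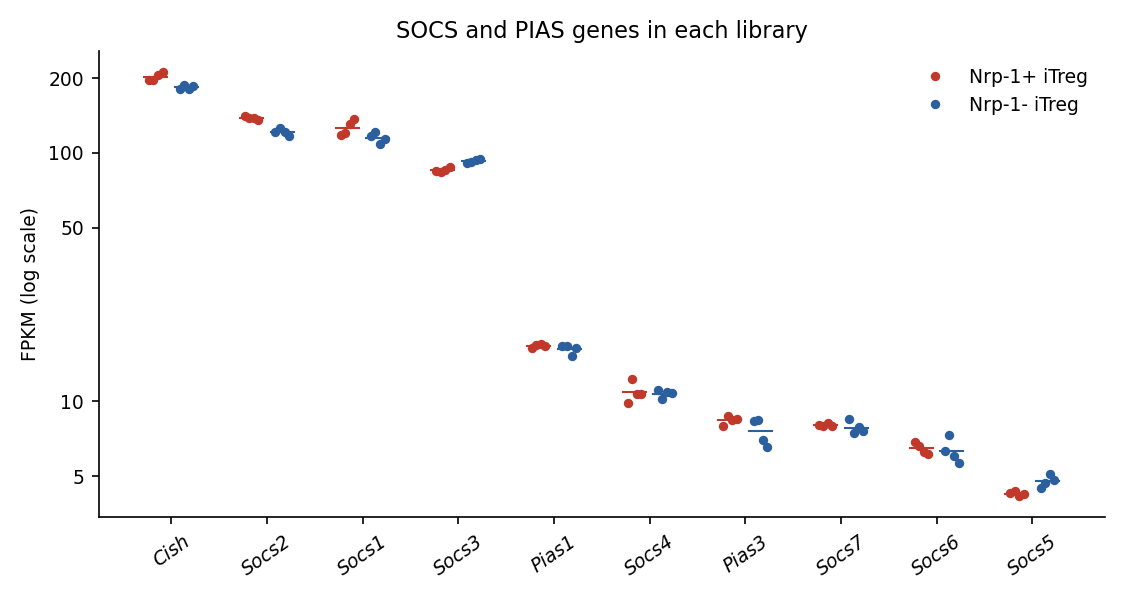
FPKM of each SOCS and PIAS gene on a log axis, with a point for each of the 4 Nrp-1+ iTreg (red) and 4 Nrp-1- iTreg (blue) libraries and a line at each group mean. Cish stood highest in both groups, and the 2 colours were apart in Cish, Socs2, Socs3 and Socs5.

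When the subsets were compared, Cish and Socs2 were higher in Nrp-1+ iTreg, Socs3 and Socs5 were lower, and the other 6 members did not pass the test (limma on log2(FPKM + 1), Benjamini-Hochberg adjusted p under 0.05 over 10467 tested genes). All 10 members passed the filter of a mean of at least 1 FPKM. The differences were small, from a 14.1% higher mean for Socs2 to an 11.2% lower mean for Socs5. Across all genes tested, 20.9% were called higher and 20.0% lower, so 2 of 10 members in each direction is close to the share in the table as a whole. The groups did not overlap for these 4 of the 10 members (exact two-sided permutation p = 0.0286 for each) and for 39.5% of all genes tested. The median log2 fold change was 0.04 over the members and -0.02 over all genes tested.

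**Figure D2:**
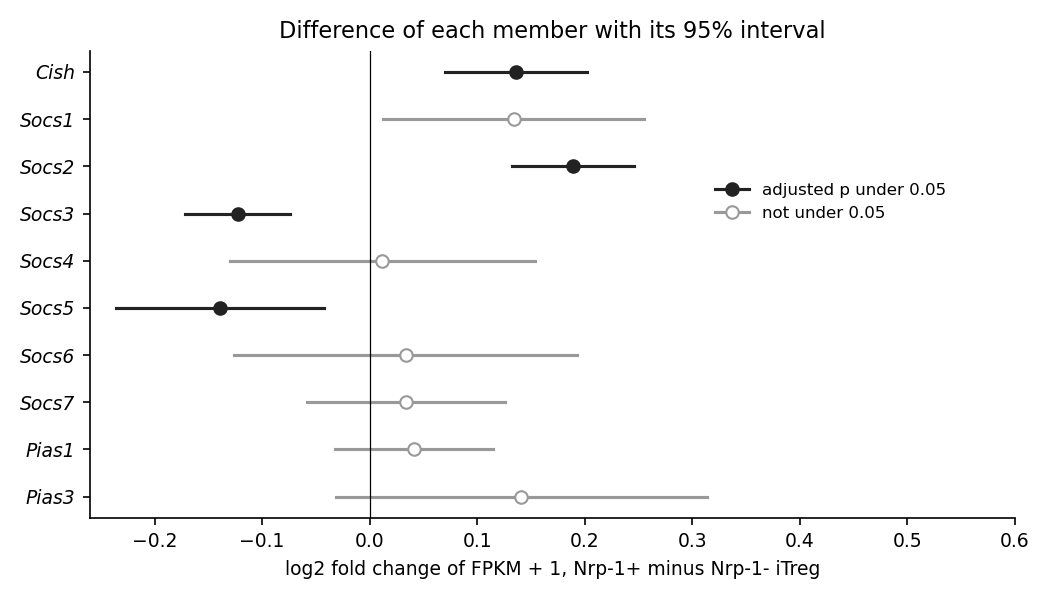
Log2 fold change of each member, Nrp-1+ minus Nrp-1- iTreg on the log2(FPKM + 1) scale, with its 95% interval from limma. Filled points mark an adjusted p under 0.05, with Cish and Socs2 to the right of 0 and Socs3 and Socs5 to the left.

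Cish encodes CIS, which occupies docking sites on receptors such as the IL-2 receptor β chain and holds back STAT5. The gene lies at chr9:107296659-107302784. It was at 197.0, 197.2, 205.5 and 211.9 FPKM in replicates 1 to 4 of Nrp-1+ iTreg and at 181.4, 187.9, 181.8 and 186.8 FPKM in those of Nrp-1- iTreg. Every Nrp-1+ iTreg library was above every Nrp-1- iTreg library. The mean was 9.99% higher in Nrp-1+ iTreg (log2 fold change 0.14 with a standard error of 0.03; limma adjusted p = 0.00634). With quantile normalization of the libraries the adjusted p of Cish by limma was 0.161. Of its exon bases in GENCODE M21, 4.07% and 7.46% lie under the antisense genes Gm17040 and Gm17041, and the use of strand in counting is not given in the sources used here, so those reads cannot be told apart.

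Socs2, a feedback inhibitor best known for its action on growth hormone signalling, lies at chr10:95383903-95417321. Replicates 1 to 4 held 141.5, 137.9, 138.4 and 136.3 FPKM in Nrp-1+ iTreg, and 121.1, 125.8, 121.2 and 117.5 FPKM in Nrp-1- iTreg. The groups were more than 10 FPKM apart at their nearest libraries. The log2 fold change was 0.19 ± 0.02 (standard error; limma adjusted p = 0.000532), the largest among the members, and 30.0% of all tested genes changed by as much or more in either direction. The call held in all 17 alternatives tried (other scalings, filters and models, and each library left out), with adjusted p from 0.000299 to 0.0282 by limma.

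Socs1, at chr16:10783808-10785536, encodes the inhibitor that binds and blocks JAK kinases directly and restrains interferon-γ signalling. The Nrp-1+ iTreg replicates 1 to 4 had 118.1, 120.7, 130.2 and 136.7 FPKM, and those of Nrp-1- iTreg 117.0, 121.1, 108.5 and 113.5 FPKM. Replicates 1 and 2 of Nrp-1+ iTreg lay within the range of the other group, and replicates 3 and 4 above it. The mean difference of 9.92% was close to that of Cish but did not pass the test (log2 fold change 0.13, 95% interval 0.01 to 0.26, adjusted p = 0.0749 by limma), and the coefficient of variation in Nrp-1+ iTreg was 6.82% for Socs1 against 3.56% for Cish. Without replicate 1 of Nrp-1+ iTreg the adjusted p of Socs1 was 0.0436 by limma, whereas over all 17 alternatives it ran up to 0.169.

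Socs3, at chr11:117966079-117970336, encodes the inhibitor that binds the receptor chain shared by the IL-6 family, the product of Il6st, and limits STAT3. It went the other way. In Nrp-1+ iTreg, replicates 1 to 4 were at 84.4, 83.5, 85.3 and 87.5 FPKM, and in Nrp-1- iTreg at 91.3, 92.4, 93.5 and 94.1 FPKM. All 4 Nrp-1+ iTreg libraries were below all 4 Nrp-1- iTreg libraries. The mean differed by -8.24%, and the log2 fold change was -0.12 ± 0.02 (standard error; limma adjusted p = 0.00238). The call held in all 17 alternatives, with adjusted p from 0.000972 to 0.0322 by limma. Socs1 and Socs3 are also drawn in the study's own display of changed genes, which was chosen on these libraries, so their direction here is not independent evidence.

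The ratio of 2 genes within a library is not changed by a scaling factor per library, and 6 ratios among the 4 abundant members are described. They were chosen after the values were seen and carry no test. The ratio of Socs2 to Socs3 was 1.68, 1.65, 1.62 and 1.56 in replicates 1 to 4 of Nrp-1+ iTreg and 1.33, 1.36, 1.30 and 1.25 in those of Nrp-1- iTreg. The ratio of Cish to Socs3 was between 2.33 and 2.42 in Nrp-1+ cells, and between 1.94 and 2.03 in Nrp-1- cells. The ratio of Socs1 to Socs3 lay between 1.40 and 1.56 in Nrp-1+ iTreg and between 1.16 and 1.31 in Nrp-1- iTreg. The 3 ratios to Socs3 did not overlap between the groups, which for Socs2 and Cish follows from the values of the single genes above. The other 3 ratios overlapped, and that of Cish to Socs1 averaged 1.61 in both groups. The share of ratios without overlap was not computed for pairs of other genes, so nothing is read from these counts.

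**Figure D3:**
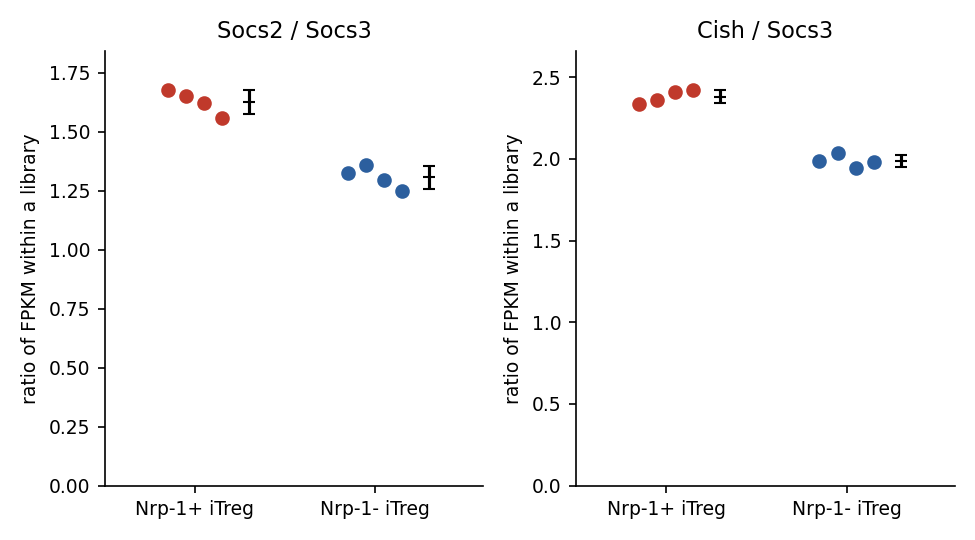
Ratio of Socs2 to Socs3 FPKM (left) and of Cish to Socs3 FPKM (right) within each of the 4 Nrp-1+ iTreg (red) and 4 Nrp-1- iTreg (blue) libraries, on axes from 0, with the mean and SD beside the points. In both panels all red points lie above all blue points, at means of 1.63 against 1.31 and 2.38 against 1.99.

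The low members Socs4 to Socs7 are less tied to cytokine feedback, and Socs4 and Socs5 are known for acting on the EGF receptor. Socs5 was at 4.27, 4.35, 4.15 and 4.22 FPKM in replicates 1 to 4 of Nrp-1+ iTreg and at 4.49, 4.69, 5.11 and 4.84 FPKM in those of Nrp-1- iTreg. The groups did not overlap, and the log2 fold change was -0.14 ± 0.04 (standard error; limma adjusted p = 0.0290). This call was lost without the filter on low values (0.0560 by limma) and with any of 5 libraries left out, namely replicate 1, 3 or 4 of Nrp-1+ iTreg or replicate 3 or 4 of Nrp-1- iTreg, with adjusted p of 0.0561, 0.0726, 0.0605, 0.0663 and 0.0676 by limma.

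Socs4 ranged from 9.82 to 12.3 FPKM in Nrp-1+ cells, against 10.2 to 11.2 FPKM in Nrp-1- cells (log2 fold change 0.01, 95% interval -0.13 to 0.15). Socs6 ranged in the same order from 6.13 to 6.87 FPKM and from 5.63 to 7.28 FPKM (0.03, interval -0.13 to 0.19), and Socs7 from 7.96 to 8.15 FPKM and from 7.42 to 8.47 FPKM (0.03, interval -0.06 to 0.13). The groups overlapped in all 3 genes, and the intervals leave room for a change of either sign. The direction of these 3 genes was not stable, since each turned negative in at least 1 alternative.

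Pias1 averaged 16.8 ± 0.230 FPKM in Nrp-1+ cells against 16.3 ± 0.682 FPKM in Nrp-1- cells (SD, n = 4 each), with a 95% interval of the log2 fold change from -0.03 to 0.12 (adjusted p = 0.334 by limma). Pias3, whose protein inhibits STAT3, lay between 7.99 and 8.74 FPKM in Nrp-1+ iTreg. In Nrp-1- iTreg its replicates 1 and 2 were at 8.30 and 8.41 FPKM and its replicates 3 and 4 at 6.97 and 6.55 FPKM. The log2 fold change of 0.14 was as large as that of Cish, but the spread in Nrp-1- iTreg was wide (coefficient of variation 12.4%), and the gene did not pass (adjusted p = 0.169 by limma).

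The genes that work with these inhibitors were described by role from fixed lists, which held 86 tested genes, of which 13 were higher and 28 lower in Nrp-1+ iTreg. The background for this and each count below is the share over all tested genes, 20.9% higher and 20.0% lower, and nothing is read from a count near it. Of 18 tested receptor chains, 9 were lower and 1 was higher. The higher one was Il2ra, the IL-2 receptor α chain, at 265.5 ± 4.96 against 227.9 ± 3.58 FPKM (SD, n = 4 each; log2 fold change 0.22, adjusted p = 0.000108 by limma), and the lower ones included Il7r (-0.36) and Ifngr1 (-0.25). The β and γ chains of the IL-2 receptor did not pass, with log2 fold changes of -0.04 for Il2rb and -0.01 for Il2rg, both above 0 with quantile normalization; these 2 genes, like Stat5a and Stat5b, were named after their values were seen. Of 6 STAT genes described, 4 were lower, among them Stat4 (-0.29), Stat3 (-0.11) and Stat6 (-0.11). Stat5b was lower (-0.08, adjusted p = 0.0202 by limma, but 0.0508 to 0.0553 without replicate 1 or 2 of Nrp-1+ iTreg or replicate 2 of Nrp-1- iTreg and 0.0509 with quantile normalization), and Stat5a, at -0.04, did not pass. Of 4 JAK genes, only Jak1 passed (log2 fold change -0.19, adjusted p = 0.000329 by limma), and with quantile normalization its adjusted p by limma was 0.0623.

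Among the cytokines that T cells can make, 2 of 11 were above the filter, Osm and Lif, and Lif was higher in Nrp-1+ iTreg (3.55 against 2.36 FPKM, log2 fold change 0.44, adjusted p = 0.00652 by limma). Il13 was listed at 0 in all 8 libraries. Of the 5 genes of the ubiquitin ligase that joins the SOCS box, 0 passed the test by limma and 0 had an unadjusted p under 0.05, with log2 fold changes from -0.07 to 0.03. Of 14 genes of the SUMO pathway, in which PIAS proteins are ligases, 5 were higher and 2 lower. Sae1, a subunit of the SUMO-activating enzyme, was higher by 22.2%, Sumo3 by 21.8% and the SUMO protease gene Senp1 by 16.5%. The 2 lower genes, named after their values were seen, were Senp6 (-10.6%, adjusted p = 0.00117 by limma) and Senp3 (-9.45%, adjusted p = 0.0417 by limma). The groups overlapped for Senp3.

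Of 10 phosphatase and adaptor genes, 2 were higher and 3 lower, close to the shares over all tested genes. Ptpn1, a phosphatase of JAK kinases, was at 87.1 ± 2.01 FPKM against 74.7 ± 1.34 FPKM (SD, n = 4 each), Ubash3b was higher (log2 fold change 0.24), and the ubiquitin ligase gene Cblb was at 29.0 ± 0.110 FPKM against 37.0 ± 1.44 FPKM. Their adjusted p values by limma were 0.000166, 0.00103 and 4.12e-05.

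Target genes were grouped by the STAT or the cytokine they are usually tied to. Of 13 genes linked to STAT5, the group to which Cish and Socs2 would belong, 5 were higher and 2 lower. The higher ones included Il2ra and Lif, which were also counted above among the receptor chains and the cytokines, since some genes stand in more than 1 list. Bcl2l1 was at 0.29 and Pim2 at -0.42 on the log2 fold change scale. Of 11 tested interferon genes, 6 were lower and 0 higher by limma. At an unadjusted p under 0.05 by limma, 1 gene was on the higher side, Psmb9 (0.10), which was named after its value was seen. The lower ones included Irf1 (-0.37), Nlrc5 (-0.30) and Irf9 (-0.20). Of 6 tested genes linked to STAT3, Junb was higher (0.10, adjusted p = 0.0455 by limma) and Batf lower (-0.12, adjusted p = 0.0377). The Junb call was lost without replicate 2, 3 or 4 of Nrp-1+ iTreg or 1, 3 or 4 of Nrp-1- iTreg (limma adjusted p from 0.0502 to 0.110), and the Batf call without replicate 1, 2 or 3 of Nrp-1+ iTreg or 1, 2 or 4 of Nrp-1- iTreg (0.0586 to 0.0902). Without the filter on low values their limma adjusted p was 0.0642 and 0.0548, and with quantile normalization 0.107 and 0.0545, while eBayes without trend gave 0.0604 for Junb. The median log2 fold change was 0.04 for the STAT5 list, -0.12 for the interferon list and -0.01 for the STAT3 list, against -0.02 over all genes tested. Stat3, Ifnar1, Ifngr1, Il15ra and Irf1 of these lists are drawn in the study's display of changed genes, so the lists are not independent of these libraries.

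**Figure D4:**
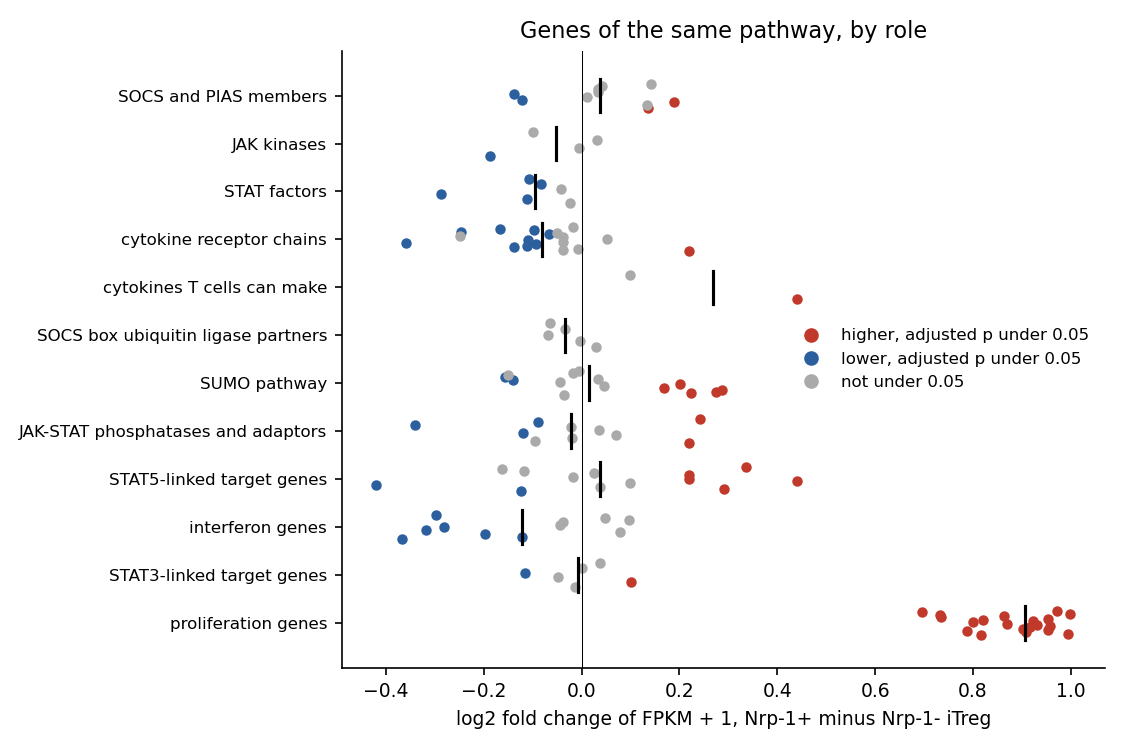
Log2 fold change, Nrp-1+ minus Nrp-1- iTreg on the log2(FPKM + 1) scale, of each tested gene by role, with a black line at the median of each list. Red points are higher and blue points lower with an adjusted p under 0.05, and the SOCS and PIAS members (top row) span -0.14 to 0.19, while the proliferation genes (bottom row) start at 0.70.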

How the data were processed

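RNA was sequenced from 8 iTreg libraries, 4 of each subset. Read processing was done by the authors with CLC Genomics Workbench and Cufflinks, and the deposited values are FPKM, one per gene symbol in each library. The labels name the builds GRCm38 and mm10. Aligner settings, annotation and the use of strand in counting are not given in the sources used here. The study's methods name a directional library kit, and the labels name another kit. Since counts were not used, limma was chosen.

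A mean of at least 1 FPKM was required (10467 of 23361 genes), and log2(FPKM + 1) was fitted with limma 3.58.1 (lmFit, then eBayes with trend) under R 4.3.3. Benjamini-Hochberg adjustment covered all tested genes. The pseudocount makes fold changes of low genes too small. Single values were compared by exact permutation over the 70 splits of 4 against 4 (Python 3.11.15, scipy 1.17.1). Relative depth is the most frequent ratio of values under 0.3 FPKM between libraries. Absolute depth is unknown, so no counting interval is given. The fit and the depth reading were tested on simulated data.

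The members and lists were chosen with earlier results of these data known, and the ratios and the GAAA search after values or sequences were seen. Named are all members, Nrp1, Foxp3, up to 3 called genes with the smallest adjusted p per list, and listed genes at 0 throughout; others were named after their values were seen. A planned comparison of protein sequences was not run, and 1 gene of the lists is not reported here.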

Additional observations from a re-analysis of the deposited data

Results flagged for a closer look

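In 3 cases a library lay far from the other 3 of its group. In replicate 1 of Nrp-1- iTreg, Ctla4 stood at 155.6 FPKM, while the remaining replicates were at 161.3 to 161.7 FPKM, and Cd28 at 103.1 FPKM, while the remaining replicates were at 96.7 to 97.8 FPKM. In replicate 4 of Nrp-1+ iTreg, Hba-a1 stood at 7.53 FPKM, against 5.48 to 5.71 FPKM in the others. With 98 groups of 4 libraries searched, about 4.9 such values are what chance gives. None of the SOCS and PIAS genes had such a library in either group.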

How the results depend on the processing

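The fit was repeated under 17 alternatives: 2 pseudocounts (0.1, 0.5), filtering removed or set at 5 FPKM, size factors, quantile normalization, the replicate block, eBayes without trend, untransformed FPKM, and each of the 8 libraries left out. Socs2 and Socs3 were called in all 17, Cish in 16, and Socs5 in 9 of the 16 that tested it. The count of higher members was 2, and 1 with quantile normalization (2 to 3 with a library left out). The count of lower members was 2, and 1 without the filter, at 5 FPKM (where Socs5 was not tested) and with the replicate block (1 to 2 with a library left out). Genes called over the table ran from 1742 to 2298 higher and from 1675 to 2100 lower, and list genes from 11 to 14 and from 21 to 28.

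Direction turned in 3 members that never passed. With quantile normalization the log2 fold change was -0.0048 for Socs4 and -0.0066 for Socs7. With a library left out it ran from -0.045 (without replicate 2 of Nrp-1+ iTreg) to 0.055 for Socs4, which was also negative without replicate 2 of Nrp-1- iTreg, and from -0.012 (without replicate 4 of Nrp-1- iTreg) to 0.095 for Socs6. Of the receptor chains that did not pass, Il2rb was at 0.0040 and Il2rg at 0.0095 with quantile normalization, and with a library left out Il2rg ran from -0.0145 to 0.0018 (without replicate 4 of Nrp-1+ iTreg). Of the other genes the report names as called, Foxp3, Jak1, Stat5b, Batf, Junb, Ctla4, Cd3d, Cd3g and Cd28 lost their call in at least 1 alternative. The cause was not tested.

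Same-numbered libraries did not deviate together (correlations from -0.54 to 0.01), so the numbers were not taken as pairs. Under the replicate block, Socs5, Junb, Stat5b, Cd3g and Cd28 lost their call, with limma adjusted p of 0.0826, 0.122, 0.0757, 0.120 and 0.0518, and no other call named in the report changed. Il9r, Ccr6, Il4, Ifit3, Senp3 and Senp6 were not run under the alternatives. Exact Mann-Whitney tests gave the same side of 0.05 as the permutation tests for all 10 members.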

Other observations

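Some genes of the pathway lists were under the filter of 1 FPKM and were read from a limma fit without that filter; they were named after their values were seen. Il9r, a receptor chain that pairs with the common γ chain, was at 0.848 to 1.51 FPKM in Nrp-1+ iTreg and 0.176 to 0.355 FPKM in Nrp-1- iTreg, with no overlap (log2 fold change 0.78 ± 0.10, standard error; limma adjusted p = 0.000788). Ccr6, a chemokine receptor gene from the STAT3 list, was at 0.636 to 0.817 FPKM and 0.246 to 0.454 FPKM (log2 fold change 0.38, adjusted p = 0.00195 by limma). Both fold changes are on the log2(FPKM + 1) scale, and the pseudocount makes them too small at such levels. In mean FPKM, Il9r was 355% higher in Nrp-1+ iTreg and Ccr6 122% higher. Il4 was listed at 0 in all 4 Nrp-1+ iTreg libraries and between 0.121 and 0.448 FPKM in those of Nrp-1- iTreg. Ifit3, from the interferon list, was at 0.710 to 0.959 FPKM in Nrp-1+ iTreg and 1.04 to 1.32 FPKM in Nrp-1- iTreg. Its mean differed by -31.9% (adjusted p = 0.0151 by limma). At such levels a value rests on few fragments.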
